A study of Mus musculus with 6 samples.

Results

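5-Hydroxymethylcytosine (5hmC) is made when TET enzymes oxidise 5-methylcytosine. In brain it is abundant, and it is known to mark gene bodies and enhancers of neurons. A region enriched for it can reach over several kilobases, and the edges of such a region are set by where the captured signal falls below the limit of a peak caller. Described here are the places where 5hmC enrichment was found once in control brain and once in injured brain at the same location, and where the enriched interval was wider in the injured group.

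The study mapped 5hmC in brain tissue of C57BL/6 mice, in 3 mice with ischemic injury (I/R in the labels) and in 3 control mice. Labelled 5hmC-bearing fragments were captured and sequenced (hMe-Seal, a chemical tagging method that places a modified sugar on each 5hmC base). The sources used here do not give the brain region, the age and sex of the mice, the control procedure or the time after injury. The authors deposited 1 list of enriched intervals (peaks) per group, with a position on the mouse mm9 genome and a score for each peak. There are thus no values per mouse, no spread between mice and no test of the conditions. The intervals given below (95%, exact binomial for shares and for medians) cover counting error only and treat neighbouring peaks as independent, which makes them too narrow. The number of sequenced reads behind each list is unknown. In whole tissue, a different mix of cell types and a different amount of 5hmC per cell cannot be told apart.

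The regions were chosen by the 2 widths themselves. A pair was formed on chromosomes 1 to 19 when 1 control-list peak and 1 injury-list peak overlapped by at least 1 bp and neither overlapped any other peak of the other list. Pairs were kept when the injury-list peak was at least 25% wider than the control-list peak. Of 12963 such one-to-one pairs, 3161 met this rule, which is 24.4% of them (23.6 to 25.1%). They are called wider pairs below. The mirror rule, an injury-list width of at most 0.8 times the control-list width, took in 3347 narrower pairs, or 25.8% (25.1 to 26.6%), and left 6455 pairs of stable width. All 3161 wider pairs entered every description below. Their widths are part of the rule and are given as a description only.

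Wider pairs were thus no more frequent than narrower ones. At 1.5-fold or more, 1808 pairs were wider (13.9% of all pairs) and 1906 were narrower (14.7%). At 2-fold or more, 664 were wider (5.12%) and 729 narrower (5.62%). Past 3-fold the order turned, with 115 wider and 96 narrower pairs, and past 4-fold there were 28 and 18. At 5-fold or more the numbers were equal, 5 and 5. The balance of the classes depended on how the lists were taken. When peaks of the same list within 1 kb of each other were first merged, 4511 of 12230 pairs were wider (36.9%) and 2776 were narrower (22.7%). Before merging, another injury-list peak lay within 1 kb of 38.2% of all pairs, and another control-list peak within 1 kb of 18.0%. Merging can thus lengthen injury-list peaks more often, so this change of balance is also partly built in. When the lists were made equally long, by keeping only the top of the injury list by score, 2912 of 9575 pairs were wider (30.4%) and 1799 narrower (18.8%). That setting drops low-scoring peaks of the injury list only, and low-scoring peaks tend to be narrow. Among the tenth of pairs with the lowest injury-list scores, 66.8% were narrower and 4.09% wider. The higher share of wider pairs is thus partly built in.

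**Figure D1:**
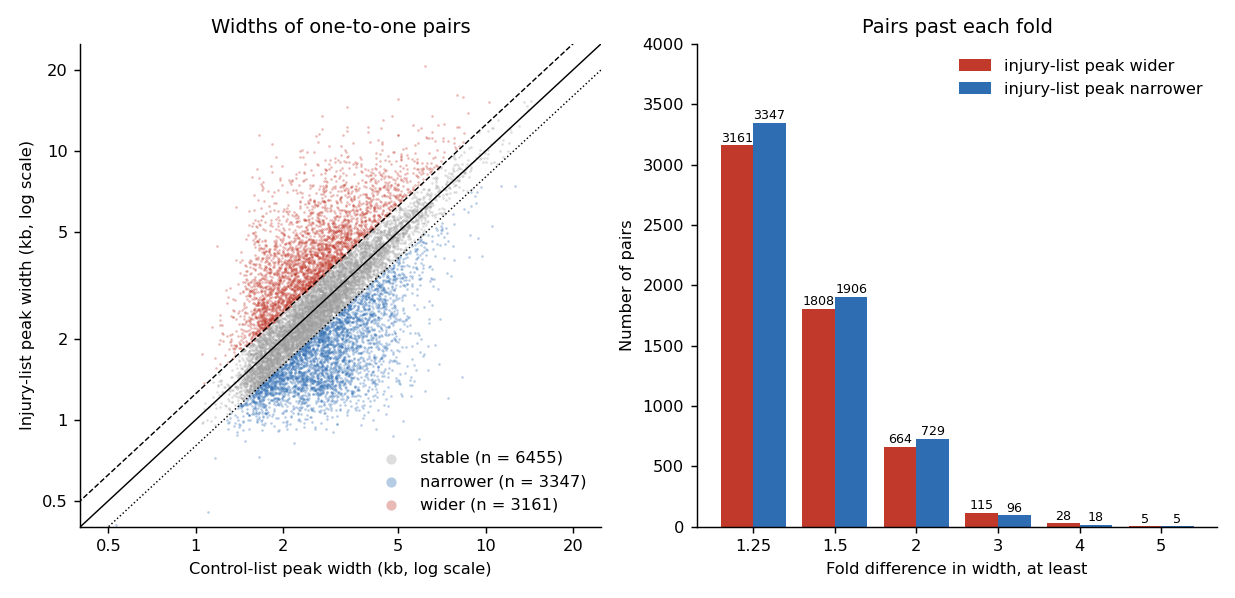
Left, width of the control-list peak (x, kb, log scale) against that of the injury-list peak (y, kb, log scale) for each one-to-one pair; the solid line marks equal widths, the dashed line an injury-list peak 25% wider and the dotted line one of 0.8 times the control width. Right, number of pairs past each fold in either direction: 3161 wider and 3347 narrower pairs at the lowest fold, 115 and 96 at 3-fold.

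In the wider pairs the median control-list peak spanned 2421 bp, with quartiles of 1906 and 3131 bp. The median injury-list peak spanned 4076 bp, with quartiles of 3128 and 5485 bp. The median ratio was 1.57 (1.55 to 1.58), with quartiles of 1.37 and 1.90 and a maximum of 6.96. The median gain was 1477 bp (1440 to 1522 bp), and gains ran from 305 to 14503 bp. Over all wider pairs the enriched sequence went from 8.49 Mb in control tissue to 14.4 Mb in injured tissue, a difference of 5.96 Mb. The narrower pairs went from 10.5 Mb to 6.29 Mb, a difference of -4.21 Mb, and the stable pairs differed by -0.082 Mb. Wider pairs held 13.5% of the autosomal bases of the control list and 10.8% of those of the injury list.

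The control-list peaks of wider pairs were ordinary to narrow for their list. Their median width lay at the 41.3rd percentile of all autosomal control-list peaks, while the injury-list partners lay at the 89.2nd percentile of theirs. Over all one-to-one pairs the medians lay at the 49.9th and 67.9th percentiles, so paired injury-list peaks were broad for their list in general. Among the tenth of pairs with the narrowest control-list peaks 31.8% were wider (29.2 to 34.4%), and among the tenth with the broadest 16.5% (14.5 to 18.6%). Since control width is the divisor of the rule, this slope is partly built in. Few wider pairs reached the size of broad domains: 63 of them had an injury-list peak of 10 kb or more, out of 309 such autosomal peaks in the injury list, and 1 had a control-list peak of that size.

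Most control-list peaks of wider pairs were covered in full, which the width rule itself favours. The injury-list peak covered at least 90% of the control-list peak in 83.9% of wider pairs (82.6 to 85.2%), and less than 50% of it in 53 pairs (1.68%). The control-list peak lay wholly inside the injury-list peak in 1736 pairs (54.9%, 53.2 to 56.7%). In the mirror measure, the injury-list peak passed the control-list peak at neither edge in 69.8% of narrower pairs (68.2 to 71.4%). At 2 kb on the lower-coordinate side of the control-list midpoint, 11.1% of the control-list peaks and 49.0% of the injury-list peaks were still present. On the higher-coordinate side at the same distance the shares were 11.1% and 47.9%. At 4 kb they were 0.221% and 11.8% on the lower side. In stable pairs the shares at 2 kb on the lower side were 16.1% and 19.4%.

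**Figure D2:**
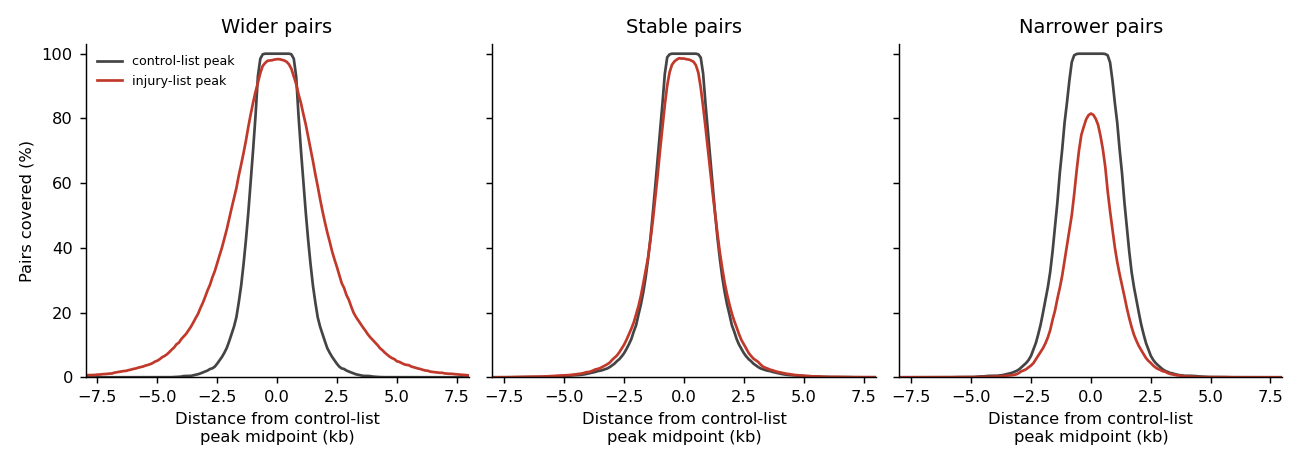
Share of pairs (y, %) whose control-list peak (grey) or injury-list peak (red) covered a point at a given distance from the midpoint of the control-list peak (x, kb), for wider, stable and narrower pairs. The control curve is 100% at 0 by construction; in wider pairs the injury curve is broader on both sides (49.0% and 47.9% at 2 kb), and in narrower pairs it lies below the control curve.

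In most wider pairs the added sequence lay mainly at 1 edge, though less often than in stable pairs. The injury-list peak passed the control-list peak at both edges in 1731 wider pairs (54.8%, 53.0 to 56.5%) and at a single edge in 1430 (45.2%). In 2474 pairs (78.3%, 76.8 to 79.7%) at least 75% of the bases outside the control-list peak lay at 1 edge. Among pairs with any such bases the share was 91.0% in stable pairs (4300 of 4726) and 87.5% in all pairs (7784 of 8897). The rule holds stable pairs near equal width, which leaves little room to pass both edges. Their higher share is thus partly built in. In the mirror measure, 71.9% of narrower pairs (70.3 to 73.4%) had at least 75% of the control-list bases outside the injury-list peak at 1 edge. Neither direction along the chromosome was preferred: the lower-coordinate edge gained more in 1583 of 3161 pairs (50.1%, 48.3 to 51.8%), and the median gain was 677 bp at the lower and 657 bp at the higher edge. The share that passed both edges rose with the ratio, which is the rule itself, so this slope is partly built in. It was found in 47.0% of pairs with a ratio under 1.5 (44.3 to 49.7%), in 55.0% from 1.5 to 2, in 68.9% from 2 to 3 and in 76.5% at 3 or more (67.7 to 83.9%). When only gains of at least 100 bp at an edge were counted, 43.2% of wider pairs passed both edges.

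The widest additions can be followed in single regions. The largest ratio, 6.96, was on chromosome 2. There a control-list peak of 1652 bp (chr2:166160000-166161651) lay inside an injury-list peak of 11498 bp (chr2:166157837-166169334), with 2163 bp added below and 7683 bp above. The next injury-list peak began 74 bp further on, so the enriched stretch went on beyond this interval. On chromosome 15 a peak of 1837 bp (chr15:82762108-82763944) corresponded to one of 10585 bp in the injury list (chr15:82760155-82770739), a ratio of 5.76. On chromosome 5 a peak of 1623 bp (chr5:24474217-24475839) corresponded to one of 8566 bp (chr5:24472022-24480587), a ratio of 5.28. All of these control-list peaks had scores near the lower end of their list, between 52.43 and 61.85, on a scale that starts at 50.

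The largest gain in bases, 14503 bp, was on chromosome 17. The control-list peak measured 6186 bp (chr17:27591765-27597950) and the injury-list peak 20689 bp (chr17:27577399-27598087), the widest injury-list peak of any wider pair. Nearly all of the gain, 14366 bp, lay at the lower edge, and 137 bp lay at the other. A second pair on chromosome 2 was similar in shape. Its control-list peak of 3324 bp (chr2:179931222-179934545) had an injury-list partner of 14609 bp (chr2:179919865-179934473), with 11357 bp added at the lower edge. Its injury-list score was only 51.34, so this long interval stood close to the calling limit. On chromosome 9 a peak of 2731 bp (chr9:45613212-45615942) had a partner of 13511 bp (chr9:45604320-45617830), with 8892 bp added below and 1888 bp above.

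A chromosome 5 pair among the 10 largest gains differed from these in shape, as it was extended by nearly the same length on both sides. Its control-list peak spanned 4998 bp (chr5:125603698-125608695) and its injury-list peak 15559 bp (chr5:125598418-125613976), with 5280 bp added at the lower and 5281 bp at the higher edge. In a chromosome 8 pair the extension was almost entirely above: the peak went from 2662 bp (chr8:11403296-11405957) to 11532 bp (chr8:11403205-11414736), with 91 bp added below and 8779 bp above. One of the 10 largest ratios was not a centred extension at all. On chromosome 7 the injury-list peak (chr7:29362808-29370772, 7965 bp) covered only 14.0% of its control-list partner (chr7:29370541-29372195, 1655 bp) and ended 1423 bp before that partner did.

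The lists of the 10 largest ratios and the 10 largest gains share 3 regions, which leaves 17 in all. Of these 17, 15 held the control-list peak in full, and 12 had at least 75% of the added bases at 1 edge. Over all wider pairs these shares were 54.9% and 78.3%. The injury-list peak was 10 kb or longer in 10 of them, against 1.99% of all wider pairs. The control-list score was under the median of its list in 10, and the injury-list score was above the median of its list in 15. Over all wider pairs the control-list score was above its median in 43.9% and the injury-list score in 94.0%. These scores thus do not set the 17 regions apart. The remaining ones, not described singly above, lay on chromosomes 12, 8, 16, 6 and 4 (ratios 5.10, 5.03, 4.83, 4.57 and 4.51) and, by gain, on chromosomes 17, 8 and 4 (9393, 8995 and 8771 bp).

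**Figure D3:**
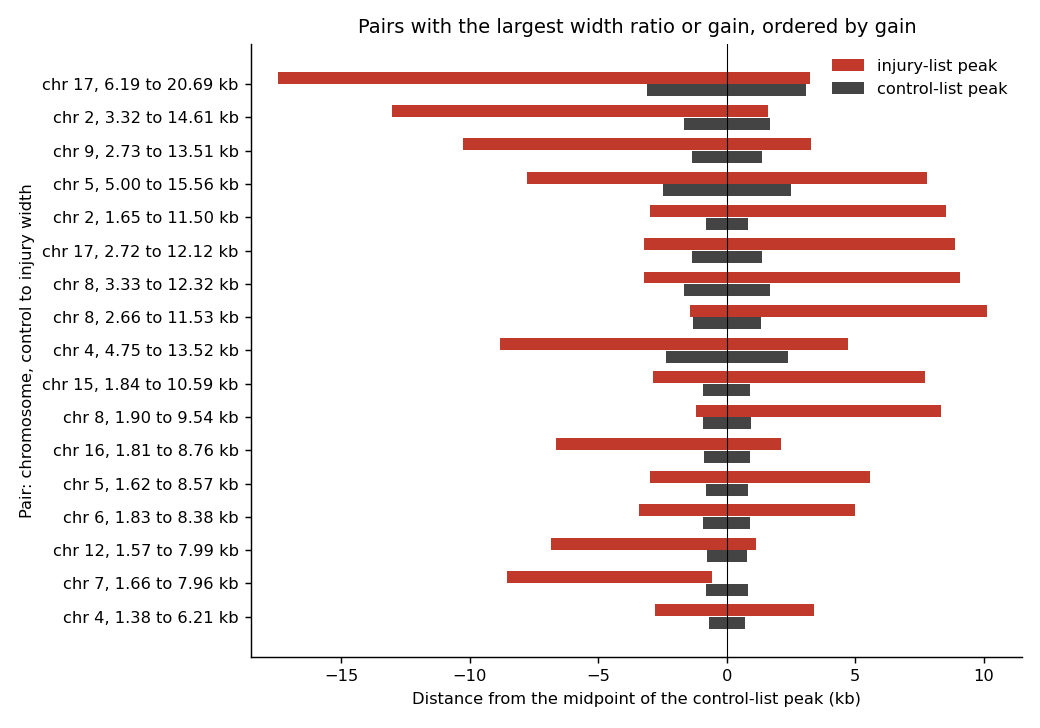
Extent of the control-list peak (grey bar) and the injury-list peak (red bar) in the 17 pairs with the largest width ratio or gain, on a scale of distance from the midpoint of the control-list peak (x, kb), with 1 pair per row (y). Most red bars reach out mainly to one side; the upper chromosome 5 row is near symmetric, and the chromosome 7 bar leaves part of its grey bar uncovered.

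At the threshold itself the pairs did not form a separate group. The 3 pairs just inside it had widths of 1584 and 1980 bp on chromosome 4, 2124 and 2655 bp on chromosome 4, and 1963 and 2454 bp on chromosome 17. The 3 just outside it had 5201 and 6501 bp on chromosome 17, 4097 and 5121 bp on chromosome 17, and 3862 and 4826 bp on chromosome 4. The widths of all 6 stood in nearly the same ratio, and 1353 of the 3161 wider pairs had ratios under 1.5.

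The score of a peak is the authors' own value, taken here as the usual MACS score, which grows with the evidence for enrichment. It was used as a rank within its own list, and it comes from the same calls as the widths. In wider pairs the control-list peak had a median score of 75.04, at the 45.1st percentile of its list (43.6 to 46.3). The injury-list peak had a median score of 214.9, at the 88.1st percentile of its list (87.5 to 88.7). In stable pairs the medians lay at the 52.5th and 77.2nd percentiles, and in narrower pairs at the 55.0th and 48.6th. The injury-list percentile was the higher one in 91.5% of wider pairs (90.5 to 92.4%), against 73.5% of all pairs and 45.0% of narrower pairs. The injury-list score was in the top 10% of its list in 43.8% of wider pairs, and the control-list score in 7.12%.

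Width and score were tied within each list, with Spearman's rho of 0.53 over 20555 control-list and 0.69 over 53341 injury-list autosomal peaks. Both values of a point come from the same call. Against peaks of similar width in their own list, a ranking added after the data were seen, the order of the classes changed. The injury-list peaks of wider pairs then had a median percentile of 62.2, under the 73.8 of stable and the 67.1 of narrower pairs. The control-list peaks had medians of 50.0, 54.3 and 51.2 in the same order. Each class was ranked in its own range of widths, and injury-list width is part of the rule, so these medians do not compare the classes at equal width.

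Pairs with the strongest scores can be followed singly. The highest injury-list score of a wider pair, 1286.66, belonged to a chromosome 5 peak of 9468 bp (chr5:139897738-139907205), which enclosed a control-list peak of 6669 bp with a score of 543.73. The second, 1285.86, belonged to a chromosome 16 peak of 3340 bp (chr16:4934697-4938036) over a control-list peak of 1714 bp with a score of 592.42. The next ones in order, 1193.56 and 1098.13, lay in a single stretch of chromosome 2 described below. The highest control-list score of a wider pair, 3100, belonged to a chromosome 12 peak of 3671 bp (chr12:81857131-81860801), with an injury-list partner of 4936 bp and a score of 543.21. In the 5 wider pairs with the highest control-list scores the ratio ran from 1.27 to 1.81. In the 5 with the highest injury-list scores it reached 1.95, and the median of all wider pairs was 1.57.

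Wider pairs stood in surroundings rich in other injury-list peaks. Measured from the outer edges of the pair, another injury-list peak lay within 5 kb of 82.3% of wider pairs (81.0 to 83.7%), against 74.3% of stable (73.2 to 75.4%) and 68.2% of narrower pairs (66.6 to 69.8%). Within 1 kb the shares were 47.3%, 38.0% and 29.9%. The nearest injury-list peak was at a median of 1148 bp from wider, 1705 bp from stable and 2484 bp from narrower pairs. From the same outer edges, control-list neighbours followed the same order with smaller differences. Another control-list peak lay within 5 kb of 47.6% of wider (45.9 to 49.4%), 47.1% of stable (45.9 to 48.4%) and 45.1% of narrower pairs (43.4 to 46.8%). These 3 intervals overlap. In wider pairs the outer edges are mostly those of the longer injury-list peak, which shortens the distance to the next control-list peak. Measured from the control-list peak itself, a choice added later, the share of wider pairs was 42.5%. That share is not given for the other classes. The order for control-list neighbours thus cannot be read apart from the measuring point.

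Near neighbours, counted outward from the outer edges of the pair, were about as frequent on the side that grew as on the other. From the edge that gained more, another injury-list peak lay within 5 kb in 62.7% of wider pairs (61.0 to 64.4%), and from the other edge in 63.5% (61.8 to 65.1%). For control-list peaks the shares were 28.3% and 30.6%. An injury-list peak that reached a further control-list peak would have left the one-to-one pairs. Neighbours were also counted only past the gained bases. Whether gains went toward neighbours thus cannot be read from these shares. The wider surroundings differed less than the near ones: a median of 70 other injury-list and 27 other control-list peaks had their midpoint within 500 kb of a wider pair, against 62 and 24 for a narrower pair. Among the tenth of pairs with the fewest injury-list peaks within that distance 17.5% were wider (15.5 to 19.7%), and among the tenth with the most 28.4% (25.9 to 30.9%). The injury list made up a median of 71.7% of these surrounding peaks for wider, 71.0% for stable and 70.6% for narrower pairs.

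Pairs of the same class tended to follow one another along the chromosome, and this held for wider and for narrower pairs. When the next pair began less than 5 kb away, it was wider in 31.1% of cases after a wider pair (27.7 to 34.7%), in 25.7% after a stable pair (23.5 to 28.1%) and in 17.1% after a narrower pair (14.2 to 20.3%). Under 5 kb, a narrower pair was followed by another narrower one in 34.8% of cases (31.1 to 38.7%). At 5 to 20 kb the shares of wider next pairs were 31.2%, 26.9% and 23.8%. At 100 kb or more they were 22.3%, 20.2% and 19.7%, with overlapping intervals. The difference between neighbours of wider and of narrower pairs was thus largest at short range. Even there, more than 2 of 3 next pairs after a wider one were not wider, and 1666 of 2286 unbroken runs of wider pairs held a single pair.

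**Figure D4:**
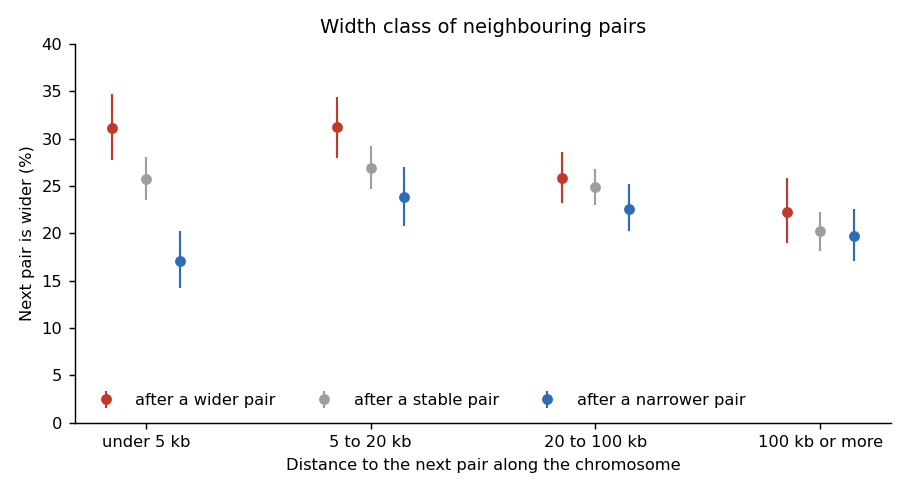
Share of next pairs along the chromosome that were wider (y, %) by the distance to them (x) and by the class of the first pair (colour), with exact binomial 95% intervals. After a wider pair the share was 31.1% under 5 kb and 22.3% at 100 kb or more; after a narrower pair it was 17.1% and 19.7%.

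The longest run, singled out after its values were seen, held 9 consecutive wider pairs within 165.4 kb of chromosome 9 (chr9:118836682-119002048). Its control-list peaks measured from 1952 to 4315 bp and its injury-list peaks from 3643 to 8514 bp. The ratios ran from 1.4 to 3.04, and together the 9 intervals went from 26.7 kb to 54.3 kb. The pair with the largest ratio went from 2805 bp (chr9:118889821-118892625) to 8514 bp (chr9:118883872-118892385). Control-list scores in this run were low to moderate, from 51.86 to 173.84 with a median of 75.69, while injury-list scores ran from 159.74 to 555.12 with a median of 287.29. Raw scores of paired peaks differed outside this run too. Control-list and injury-list medians were 75.04 and 214.9 over all wider pairs, and 80.87 and 142.8 over all pairs. In narrower pairs they were 84.84 and 85.68. Over all autosomal peaks, paired or not, the medians were also close, at 79.59 and 87.34. The gap thus belongs to which peaks were paired and classed as wider, and is not shown for the whole lists. With peaks outside one-to-one pairs included, the stretch held 16 control-list peaks over 55.6 kb and 24 injury-list peaks over 112.3 kb.

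The longest run of narrower pairs held 7 pairs. Runs of 7 wider pairs lay on chromosomes 11, 19 and 2, within 1344.6, 720.0 and 113.0 kb. Only the most compact of these, on chromosome 2 (chr2:168376458-168489496), is described here. Its ratios reached 2.38. The run holds the scores of 1193.56 and 1098.13 given above, at a peak of 10567 bp (chr2:168471004-168481570) and at one of 7515 bp (chr2:168376458-168383972). Another pair of the run was unlike its neighbours. It had a control-list score of 940.03 and an injury-list score of 208.03, with widths of 1741 and 3334 bp. In this stretch 13 control-list peaks covered 52.1 kb and 20 injury-list peaks covered 95.1 kb.

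In windows of 1 Mb, wider pairs were found in 913 of the 1424 windows that held any pair (64.1%), and 297 of these held a single one. The 49 windows with 10 or more held 589 wider pairs, 18.6% of all. The window with the most was on chromosome 8 from 122 to 123 Mb, where 20 of 40 pairs were wider (50.0%, 33.8 to 66.2%) and 4 were narrower. It was followed by chromosome 4 from 151 to 152 Mb with 18 of 55 (32.7%, 20.7 to 46.7%). Chromosome 4 from 140 to 141 Mb, with 17 of 51, and chromosome 8 from 124 to 125 Mb, with 17 of 44, were tied. The interval of the chromosome 8 window from 122 Mb lies above the 24.4% of all pairs, while that of the chromosome 4 window from 151 Mb takes that value in. These windows were picked for their counts, so the intervals are no test. Among the 199 windows with at least 20 pairs, the lowest share was on chromosome 17 from 34 to 35 Mb, with 1 of 20 (5.00%).

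By chromosome the share of wider pairs was highest on chromosome 4 (336 of 1155, 29.1%, 26.5 to 31.8%), chromosome 19 (110 of 388, 28.4%, 23.9 to 33.1%) and chromosome 12 (130 of 466, 27.9%, 23.9 to 32.2%). It was lowest on chromosome 11 (237 of 1091, 21.7%, 19.3 to 24.3%), chromosome 7 (211 of 971, 21.7%, 19.2 to 24.5%) and chromosome 9 (153 of 687, 22.3%, 19.2 to 25.6%). Of these 6 intervals, only those of chromosomes 4 and 11 leave out the 24.4% of all autosomes, and the latter by a small margin. They were picked as extremes of 19 chromosomes, with no correction for that choice. Chromosome 4 was also first after peaks within 1 kb were merged (42.4%), whereas chromosome 11, with 38.1%, was then sixth of 19. At a ratio of 1.5 or more, chromosome 4 (17.3%, tied with chromosome 19) came after chromosome 12 (18.7%) and chromosome 15 (17.6%). The median ratio of wider pairs lay between 1.46 on chromosome 3 and 1.65 on chromosome 12. Their median gain ran from 1171 bp on chromosome 3 to 1778 bp on chromosome 8, with 1723.5 bp on chromosome 15 and 1715 bp on chromosome 12 next below.

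**Figure D5:**
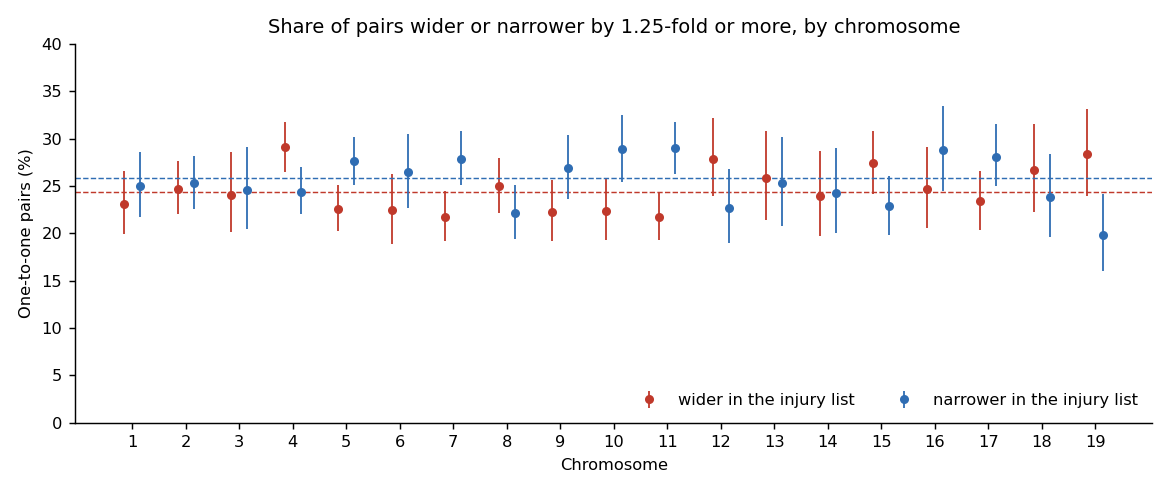
Share of one-to-one pairs (y, %) that were wider (red) or narrower (blue) past the threshold on each autosome (x), with exact binomial 95% intervals; dashed lines give the shares over all autosomes, 24.4% and 25.8%. Chromosome 4 has the highest share of wider pairs (29.1%) and chromosome 19 the lowest share of narrower ones (19.8%).

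Splitting of broad regions into several peaks bears on which pairs were counted. When peaks of the same list within 1 kb were merged before pairing, 2546 of the 3161 wider pairs still had their control-list peak in a one-to-one pair, and 2466 of them (78.0% of all 3161) were still wider. The other 3 settings leave the widths unchanged, so a wider pair that stayed paired was wider by construction. They show only how many pairs stayed. With an overlap of at least 50% of both peaks required, 2301 (72.8%) stayed paired. That setting admits no ratio above 2, so the wider pairs past 2-fold were lost by construction (664 were at 2-fold or more). With lists of equal length, 2828 (89.5%) did. With both lists limited to scores at or above the control median, 1352 (42.8%) did. The filter largely sets this share, as 1389 wider pairs (43.9%) had a control-list score above the median of its list. The median ratio of the pairs counted as wider was 1.84 after merging and from 1.48 to 1.58 under the other 3 settings.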

How the data were processed

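The authors deposited 2 peak lists, 1 per group of 3 mice, with positions and a score for each peak. Each list was assigned by the name it shares with its samples. Per the submitters' processing notes, the tools were CASAVA 1.4, Bowtie 0.12.9 and MACS 1.4.2, on build mm9. The sources used here do not give their settings, any input control, the depth, or whether mice were pooled before peak calling. The deposited score starts at 50 in both lists. Starts were taken to count from 0, as in BED files, and are printed counting from 1.

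A pair counted as wider at an injury-list width of 1.25 times the control-list width or more. Pairs, classes, distances and ranks were computed with Python 3.11.15, numpy 2.4.6, pandas 2.3.3 and scipy 1.17.1, and figures with matplotlib 3.10.9. Intervals for shares are Clopper-Pearson and those for medians exact binomial, at 95%. The pairing was tested on 2900 simulated pairs, of which 100% were rightly called wider or not wider. Stable and narrower pairs were not told apart in that test. On chromosome 19 the pairing differed from a brute-force pairing in 0 cases.

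The members and the rules were chosen with earlier results of these data known. Regions were named by rule: the 10 largest ratios and gains, the 5 highest scores in each list, the pairs next to the threshold, the fullest windows of 1 Mb and the autosomes with the 3 highest and lowest shares. Of these, some are given by range or by count. The runs on chromosomes 9 and 2 were added later. No gene, genomic feature or sequence is given, because the reference tables used here are of another build (GRCm38) and positions were not converted.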

Additional observations from a re-analysis of the deposited data

How the results depend on the processing

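No paired analysis was possible because the mice of a group share a single peak list. This also barred leaving out any mouse. The share of pairs that were wider, 24.4%, was 24.0% with scores from the control median upward and 24.4% with all chromosomes. It was 13.9% at a ratio of 1.5 and 5.12% at 2, 20.9% with an overlap of 50%, 30.4% with the injury list reduced by score to equal length (reduced list) and 36.9% after merging within 1 kb. The wider minus the narrower share, -1.43 percentage points, was -4.69 with an overlap of 50% and turned to 11.6 with the reduced list and 14.2 after merging; the cause was not tested. This difference was added after the data were seen. The median ratio of 1.57 was 1.48 with an overlap of 50% and 1.84 after merging. The median gain of 1477 bp was 1313.5 bp (overlap of 50%), 1784 bp (control median score), 1559 bp (reduced list) and 2517 bp (merging). Passing both edges, 54.8%, was 43.2% with gains of 100 bp or more, 70.2% at a ratio of 2 and 53.7% after merging. The median control-list percentile of 45.1 was 43.3 among paired peaks, 37.0 at a ratio of 2 and 50.0 among peaks of like width; the injury-list percentile of 88.1 was 71.7, 92.1 and 62.2. Chromosome 4 had 17.3% at a ratio of 1.5 and 42.4% after merging, chromosome 11 had 12.6% and 38.1%. An injury-list neighbour was found for 47.3% within 1 kb, 91.7% within 10 kb and 85.7% at a ratio of 2 (82.3% at 5 kb), and a control-list neighbour for 18.6% and 63.2%, and for 42.5% when measured from the control-list peak, a choice added later (47.6% from the pair). Windows with a wider pair were 58.2% at 0.5 Mb and 50.7% at a ratio of 1.5 (64.1%), and the fullest window held 13 under either setting (20). A stricter ratio or a smaller window lowers shares and counts by its own construction. An overlap of 50% of both peaks admits no ratio above 2, which lowers the share, median ratio and median gain in the same way. A matching limit holds for narrower pairs. The setting also changes which peaks form one-to-one pairs: there were 13066, with 2730 wider and 3343 narrower. The limit on the ratio is thus not the only difference. The reduced list loses low-scoring injury-list peaks only, which tend to be narrow, so its higher share of wider pairs is partly built in. Merging can lengthen injury-list peaks more often, as these more often have a neighbour within 1 kb. Its higher share is thus partly built in as well. Depth is unknown, so what it limits cannot be stated.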

Other observations

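The X chromosome was outside the rule. It had 7 one-to-one pairs, of which 1 was wider and 3 were narrower by the same rule. The wider one went from 1186 bp in the control list (chrX:11578124-11579309) to 2177 bp in the injury list (chrX:11576719-11578895), with scores of 52.89 and 65.98. The narrower pair with the highest control-list score on X, 1218.98, went from 2767 to 1588 bp and had an injury-list score of 55.84. With 7 pairs, no share for X can be set beside that of the autosomes.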
